A study of Mus musculus with 9 samples.

Results

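The 10 factors described here are genes whose products mark or maintain the undifferentiated state of spermatogonia or are best known from pluripotent embryonic cells: Zbtb16, Sall4, Sall1, Pou5f1, Utf1, Klf4, Dppa4, Taf4b, Lin28a and Tcl1. They were chosen by name, with earlier results of these data known, so their counts and medians beside all tested genes are a description. Each was found on exactly 1 of the 23813 entries of the deposited expression table. Transcripts were measured by RNA sequencing in mouse male germ cells sorted on EGFP from postnatal day 6 pups of LT-11B6, an Id4-eGfp transgenic line on a C57BL/6 background, so every group carries the transgene and was selected on it. The TSPAN8-high group (3 libraries) is the third of the ID4-EGFP+ cells stained most strongly for the surface tetraspanin TSPAN8, the TSPAN8-low group (3 libraries) is the third that was positive but stained most weakly, and the all ID4-EGFP+ group (3 libraries) was not divided by TSPAN8. No further treatment or mutation is given for any group. The labels call the libraries of a group replicate preparations and do not say whether several pups were pooled or which litters were used. The spread behind each p-value is that between such preparations, which may be technical.

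Undifferentiated spermatogonia include the stem cells that renew sperm production, and the undivided pool also holds progenitors on the way to differentiation. Zbtb16 (PLZF) and Sall4 are zinc finger factors needed to keep this pool in the mouse, and Taf4b, Utf1 and Lin28a are expressed in it. Pou5f1 (OCT4), Nanog and Sox2 form the core of the transcription factor network of mouse embryonic stem cells, in which Klf4, Dppa4, Utf1, Sall4 and Tcl1 also act. The comparison of the fractions asks how this group of factors is distributed along the TSPAN8 sort.

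Between 10543 and 10962 entries per library reached 1 FPKM (fragments scaled to transcript length and to the mapped fragments of the library, the authors' unit). Relative depth was estimated indirectly, from the most frequent ratio of very low FPKM values between a library and all ID4-EGFP+ replicate 1. The estimates lay between 0.858 and 1.05 of that library, and absolute depth is unknown. Pearson's r across the tested genes was 0.981 to 0.991 within groups. All ID4-EGFP+ replicate 2 stood apart in that its 10 highest entries took 17.0% of its summed FPKM, against 6.43% to 8.73% in the other libraries. In TSPAN8-high relative to TSPAN8-low cells, 6 of 6 genes of the stem cell end of the pool rose at the threshold used below. Among genes of differentiation 4 of 5 fell, where 3.41% of all tested genes rose and 2.15% fell. The 6 include Id4 and Tspan8, and the fractions were sorted on the product of Tspan8, so its rise is no check of the cells. Both lists were chosen with earlier results of these data known, so their counts are a description. Germ cell genes were high in every library, with a summed level of Ddx4, Dazl and Dnd1 of 1952 to 2282 FPKM in TSPAN8-high, 1821 to 2341 FPKM in TSPAN8-low and 1596 to 2183 FPKM in all ID4-EGFP+ cells. In these bulk samples fewer cells of a type and less RNA per cell cannot be told apart. Clu, Cst12 and Inha carried most of the Sertoli cell list, of which 9 of 10 genes were in the table, 3 were tested and none was at 0 in all libraries. None of the 3 passed between TSPAN8-high and TSPAN8-low cells without the replicate block described below (limma adjusted p = 0.191, 0.201 and 0.313 for Clu, Cst12 and Inha), and all 3 were higher with it (0.00361, 0.00109 and 0.00584). The list's summed level was 43.9 to 139 FPKM in TSPAN8-high, 5.33 to 77.4 FPKM in TSPAN8-low and 6.66 to 62.5 FPKM in all ID4-EGFP+ libraries. The other 6 genes averaged under 1 FPKM in each group. Sox9 averaged 0.103 FPKM in TSPAN8-high and 0.0911 FPKM in TSPAN8-low cells, Wt1 0.314 FPKM in TSPAN8-high and 0.235 FPKM in TSPAN8-low cells, and Amh 0.381 FPKM in TSPAN8-high and 0.0471 FPKM in TSPAN8-low cells. Gata4 averaged 0.388 FPKM in TSPAN8-high and 0.165 FPKM in TSPAN8-low cells, Amhr2 0.979 FPKM in TSPAN8-high and 0.425 FPKM in TSPAN8-low cells, and Dhh 0.476 FPKM in TSPAN8-high and 0.225 FPKM in TSPAN8-low cells. Amh, Gata4, Amhr2 and Dhh had the larger value in the TSPAN8-high library of each of the 3 replicate numbers. The leukocyte list, with 3 of 3 genes in the table, summed to 12.5 to 14.5 FPKM in TSPAN8-high, 5.13 to 12.6 FPKM in TSPAN8-low and 7.38 to 11.6 FPKM in all ID4-EGFP+ libraries, and the Leydig, peritubular myoid, endothelial and red blood cell lists stayed at or under 6.35 FPKM in every library.

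All 10 factors were detected at 1 FPKM or more in each of the 9 libraries, and all 10 were among the 11142 genes tested. Their levels per length spanned 48.8-fold, with means over the 9 libraries of 167 FPKM for Tcl1 down to 3.43 FPKM for Klf4. Tcl1 exceeded 95.8% of all table entries and Klf4 exceeded 64.6%. In TSPAN8-high cells the order was Tcl1, Dppa4, Sall4, Taf4b, Utf1, Pou5f1, Zbtb16, Lin28a, Sall1 and Klf4. The ranges of Sall4 and Taf4b, of Pou5f1 and Zbtb16, of Lin28a and Sall1, and of Sall1 and Klf4 overlapped there, so these neighbours did not differ beyond their spread. In TSPAN8-low cells the order was the same down to Lin28a, Klf4 then stood above Sall1, and Tcl1 overlapped Dppa4, as did every other pair of neighbours except Dppa4 and Sall4, Taf4b and Utf1, and Utf1 and Pou5f1. In all ID4-EGFP+ cells the order was that of TSPAN8-high cells, and the neighbours apart beyond their spread were Tcl1 and Dppa4, Dppa4 and Sall4, and Lin28a and Sall1.

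Tcl1, which encodes a coactivator of the kinase AKT, was the most abundant of the 10 and the only one that passed the test between the fractions without a pairing term. Tcl1 stood at 270, 199 and 255 FPKM in TSPAN8-high replicates 1, 2 and 3, against 62.1, 93.8 and 165 FPKM in TSPAN8-low replicates 1, 2 and 3, and at 160, 123 and 180 FPKM in the all ID4-EGFP+ replicates. Every TSPAN8-high library lay above every TSPAN8-low and every all ID4-EGFP+ library, and the TSPAN8-low libraries spread most widely. The mean was 241 ± 37.3 FPKM in TSPAN8-high and 107 ± 52.4 FPKM in TSPAN8-low cells (SD, n = 3 each), a ratio of means of 2.26. On the log2(FPKM + 1) scale Tcl1 rose by 1.27 with an SE of 0.29 and a 95% interval of 0.64 to 1.90 (limma, Benjamini-Hochberg adjusted p = 0.0276), and with the replicate number as a block the adjusted p was 0.00269. The difference was 2.10, 1.08 and 0.63 (log2) in replicate numbers 1, 2 and 3, all toward TSPAN8-high. In the same 3 pairs the summed Sertoli list was 8.23, 5.21 and 1.80 times as high in TSPAN8-high as in TSPAN8-low cells, and its part in the result was not tested. The Tcl1 call did not hold without a minimum FPKM (adjusted p = 0.166), or without TSPAN8-high replicate 1, 2 or 3 (0.0608, 0.0555 and 0.0847), TSPAN8-low replicate 1 or 2 (0.0692 and 0.0781), or replicate number 1 or 2 of every group (0.124 and 0.162).

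**Figure D1:**
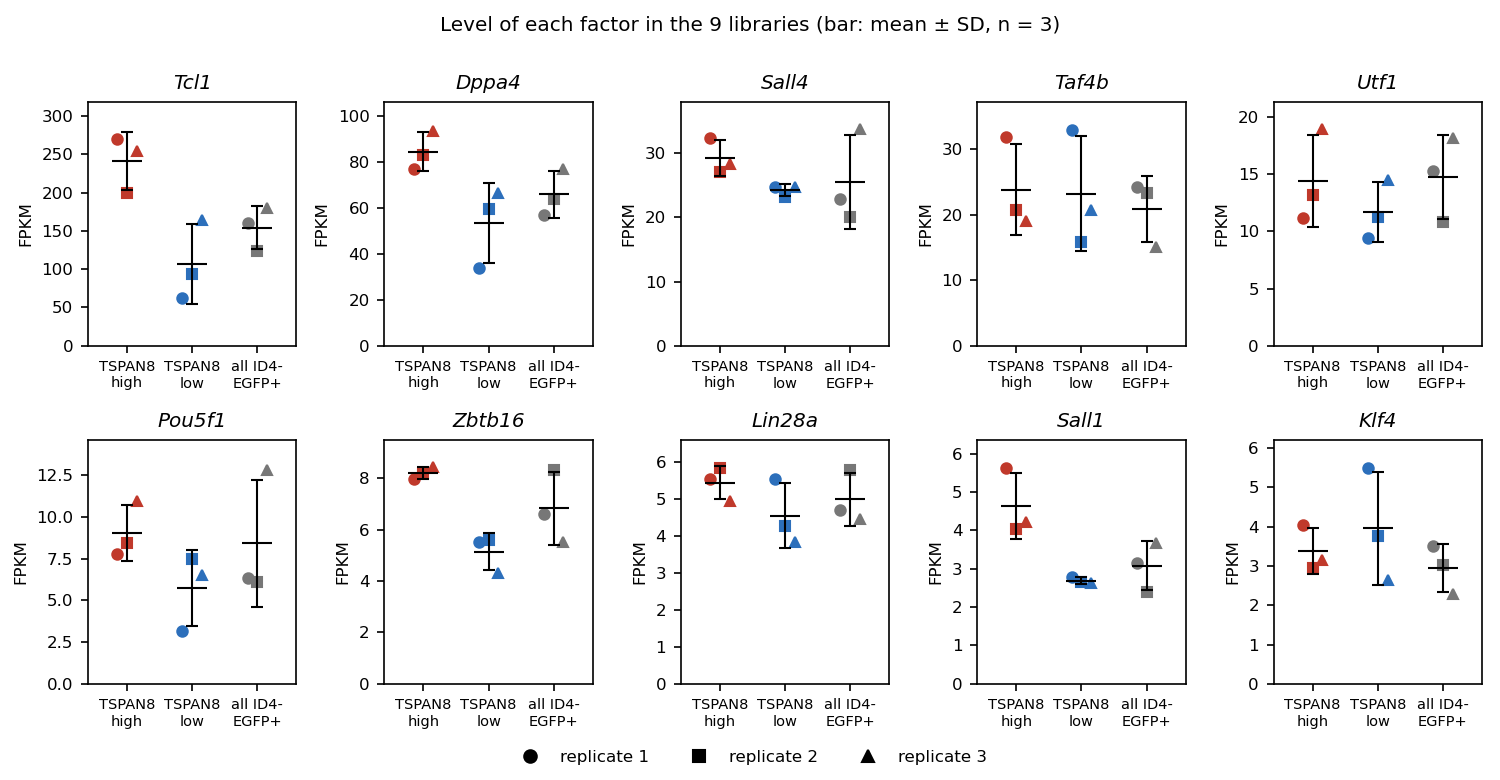
FPKM of each factor (vertical axis, linear from 0, 1 panel per gene) in TSPAN8-high, TSPAN8-low and all ID4-EGFP+ libraries, with 1 symbol per replicate number and bars for mean ± SD (n = 3). Tcl1 averaged 241 FPKM in TSPAN8-high, 107 FPKM in TSPAN8-low and 154 FPKM in all ID4-EGFP+ cells, and the 3 groups of Taf4b overlap.

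Across the 10 factors, 1 was higher and 0 were lower in TSPAN8-high than in TSPAN8-low cells at an adjusted p under 0.05 (limma), where 3.41% of all tested genes were higher, 2.15% were lower and 5.56% passed in either direction. Over all tested genes this was 380 higher and 239 lower. The split turned to 223 higher and 307 lower on the authors' normalized table, 255 and 360 at a common median, and 250 and 300 after quantile normalization, so directions of small size depend on the scaling. At an unadjusted p under 0.05, 4 factors were higher (Tcl1, Dppa4, Zbtb16 and Sall1) and 0 were lower, where 22.0% of all tested genes had such a p and 8.19% had it and were lower. The libraries of the 3 groups with the same replicate number deviated together, a pattern read from these same data that the labels do not state. With that number as a block 5 factors were higher and 0 lower, against 11.8% and 7.34% of all tested genes (19.1% in either direction). The 5 were Tcl1, Dppa4, Zbtb16, Sall1 and Pou5f1. The count was 0 without a minimum FPKM and 0 on leaving out each library or replicate number whose loss ended the Tcl1 call. It was 3 without all ID4-EGFP+ replicate 2, as Zbtb16 and Sall1 then passed (0.0438 and 0.0439), and with the block it was 3, 5 and 2 without replicate number 1, 2 and 3 of every group. The median log2 fold change was 0.43 over the 10 factors and 0.05 over all tested genes. It was above 0 for 9 of 10 factors, as for 6301 of the 11142 tested genes. The 9 include Taf4b, whose sign changes with the scaling. The 3 TSPAN8-high values all lay above the 3 TSPAN8-low values for 6 factors, as for 15.9% of all tested genes, and all lay below them for 0 factors, as for 9.71% of tested genes. For 8 of 10 factors TSPAN8-high was above TSPAN8-low in each of the 3 replicate numbers, as for 31.4% of tested genes. The 8 include Lin28a, whose log2 difference in replicate number 1 was only 0.000275, in effect a tie.

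Zbtb16, the transcriptional repressor of the undifferentiated pool, was the most even of the 10 in TSPAN8-high cells. It stood at 7.95, 8.20 and 8.43 FPKM in TSPAN8-high, 5.53, 5.59 and 4.31 FPKM in TSPAN8-low and 6.62, 8.34 and 5.52 FPKM in all ID4-EGFP+ libraries. Both fractions kept apart, and the undivided cells spanned both. The TSPAN8-high to TSPAN8-low ratio of means was 1.59, and the log2 difference of 0.59 (SE 0.16, 95% interval 0.23 to 0.94) had an adjusted p of 0.0567 in limma and passed with the block (0.0121), though not with the block and without replicate number 3 of every group (0.119).

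Sall4 and Sall1 encode related zinc finger factors that bind the NuRD deacetylase complex. Sall4 stood at 32.4, 27.1 and 28.3 FPKM in TSPAN8-high, 24.7, 23.2 and 24.8 FPKM in TSPAN8-low and 22.8, 20.0 and 33.8 FPKM in all ID4-EGFP+ libraries. The fractions did not overlap, but the undivided cells held both the lowest and the highest value. The log2 difference between TSPAN8-high and TSPAN8-low was 0.26 (95% interval -0.14 to 0.66, limma adjusted p = 0.429, 0.233 with the block). Sall1, the scarcer of the pair, stood at 5.62, 4.04 and 4.23 FPKM in TSPAN8-high, 2.79, 2.66 and 2.62 FPKM in TSPAN8-low and 3.16, 2.39 and 3.67 FPKM in all ID4-EGFP+ libraries. All TSPAN8-high values lay above all values of the other 2 groups, and the TSPAN8-low values were close together, with a coefficient of variation of 3.24%. The ratio of means was 1.72 and the log2 difference 0.60 (SE 0.16, 95% interval 0.24 to 0.96), with a limma adjusted p of 0.0529 and of 0.0138 with the block, which was lost without replicate number 1 or 3 of every group (0.0785 and 0.059). Within a library the Sall4 to Sall1 ratio was 6.40 ± 0.544 in TSPAN8-high, 9.02 ± 0.383 in TSPAN8-low and 8.27 ± 1.00 in all ID4-EGFP+ cells (SD, n = 3 each). The Sall4 to Zbtb16 ratio was 3.58 ± 0.429 in TSPAN8-high, 4.79 ± 0.848 in TSPAN8-low and 3.99 ± 1.92 in all ID4-EGFP+ cells. These ratios were chosen after the values were seen and are given as a description.

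Pou5f1 encodes the POU homeodomain factor OCT4. It stood at 7.77, 8.43 and 10.9 FPKM in TSPAN8-high, 3.15, 7.48 and 6.52 FPKM in TSPAN8-low and 6.31, 6.12 and 12.8 FPKM in all ID4-EGFP+ libraries. The fractions did not overlap, with the lowest TSPAN8-high value just above the highest TSPAN8-low value, and TSPAN8-low replicate 1 stood well below the rest. The log2 difference was 0.63 (SE 0.30, 95% interval -0.01 to 1.28). Its limma adjusted p was 0.236 and passed with the block at 0.0460. That call did not hold when the block was combined with the authors' normalized table, a common median or quantile normalization (adjusted p = 0.0879 to 0.0928), or left without replicate number 1 or 3 of every group (0.245 and 0.171).

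Utf1, which encodes a chromatin-associated factor of embryonic stem cells, and Klf4, which encodes a zinc finger factor, did not pass in either fit. Utf1 stood at 11.2, 13.2 and 18.9 FPKM in TSPAN8-high, 9.39, 11.2 and 14.5 FPKM in TSPAN8-low and 15.3, 10.8 and 18.2 FPKM in all ID4-EGFP+ libraries. The groups overlapped, although TSPAN8-high was above TSPAN8-low in each of the 3 replicate numbers. The log2 difference was 0.27 (95% interval -0.24 to 0.77, limma adjusted p = 0.533). Klf4, the factor with the lowest mean, stood at 4.05, 2.94 and 3.15 FPKM in TSPAN8-high, 5.49, 3.76 and 2.63 FPKM in TSPAN8-low and 3.52, 3.02 and 2.30 FPKM in all ID4-EGFP+ libraries. Its difference of -0.15 (95% interval -0.61 to 0.31, limma adjusted p = 0.724) was the only one of the 10 below 0, and it was above 0 in replicate number 3. It also turned to 0.066 without TSPAN8-low replicate 1.

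Dppa4 encodes a DNA-binding chromatin factor that works with DPPA2 in embryonic stem cells. It was the second most abundant factor, at 76.7, 82.8 and 93.5 FPKM in TSPAN8-high, 33.7, 59.7 and 66.5 FPKM in TSPAN8-low and 56.9, 63.6 and 76.9 FPKM in all ID4-EGFP+ libraries. The fractions did not overlap, and TSPAN8-high was also above all ID4-EGFP+ in each replicate number. The log2 difference between the fractions was 0.70 (SE 0.23, 95% interval 0.21 to 1.20), with a limma adjusted p of 0.0942 and of 0.00648 with the block. Its partner Dppa2 rose in the same comparison, at 8.86, 8.86 and 9.52 FPKM in TSPAN8-high, against 5.28, 4.76 and 6.17 FPKM in TSPAN8-low cells (log2 fold change 0.66, SE 0.15, adjusted p = 0.0256). Leaving out replicate 2 or 3 of TSPAN8-high (0.0853 and 0.0839), or replicate 1 or 2 of TSPAN8-low (0.0603 and 0.0862), ended the Dppa2 call, as did testing with no minimum FPKM (0.0565). So did leaving out replicate number 1, 2 or 3 of every group (limma adjusted p = 0.0702, 0.255 and 0.130). Within a library the Dppa4 to Dppa2 ratio was 9.28 ± 0.586 in TSPAN8-high and 9.90 ± 3.17 in TSPAN8-low cells (SD, n = 3 each), and the libraries overlapped.

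Taf4b encodes a germ cell subunit of the general transcription factor TFIID, and Lin28a an RNA-binding protein that blocks maturation of the let-7 microRNAs. Taf4b stood at 31.8, 20.7 and 19.0 FPKM in TSPAN8-high, 33.0, 15.9 and 20.8 FPKM in TSPAN8-low and 24.3, 23.2 and 15.1 FPKM in all ID4-EGFP+ libraries. The fractions lay over each other, and replicate 1 was the highest in each group. Its log2 difference was 0.06 (95% interval -0.53 to 0.66, limma adjusted p = 0.909) and its sign changes with the scaling (-0.029 at a common median, -0.011 after quantile normalization). Lin28a stood at 5.55, 5.83 and 4.95 FPKM in TSPAN8-high, 5.55, 4.28 and 3.83 FPKM in TSPAN8-low and 4.71, 5.79 and 4.46 FPKM in all ID4-EGFP+ libraries. The groups overlapped, with replicate 1 of both fractions at the same level. The log2 difference was 0.22 (95% interval -0.12 to 0.57, limma adjusted p = 0.439). Against the paralogs, chosen after the values were seen, Taf4b stood at 21.1 ± 5.89 times Taf4a in TSPAN8-high and 19.0 ± 5.21 times in TSPAN8-low cells. Lin28a stood at 1.42 ± 0.461 times Lin28b in TSPAN8-high and 0.961 ± 0.217 times in TSPAN8-low cells (SD, n = 3 each), with overlapping libraries in both cases.

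**Figure D2:**
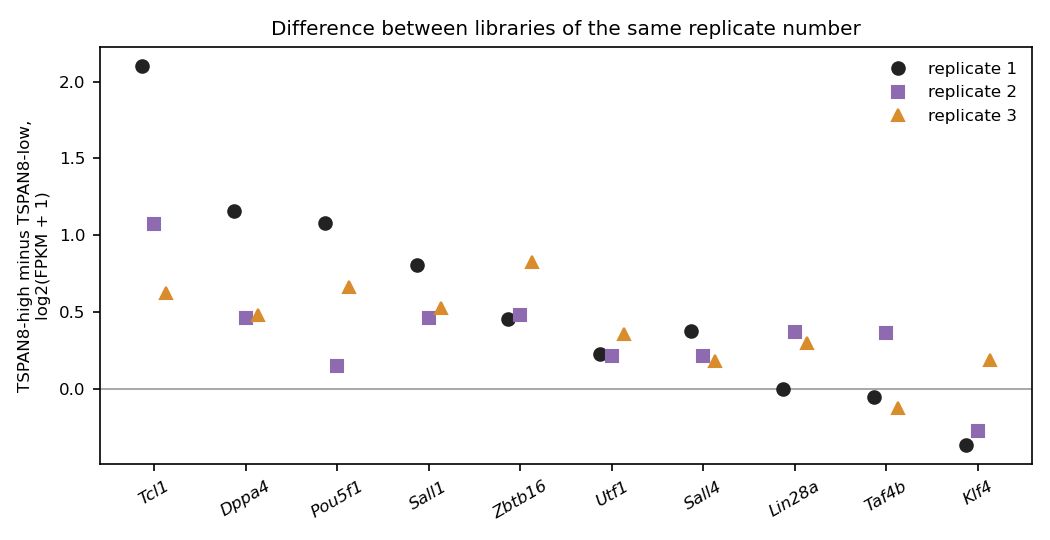
TSPAN8-high minus TSPAN8-low on the log2(FPKM + 1) scale (vertical axis) for each factor, with 1 symbol for each of the 3 replicate numbers. All 3 symbols lie above 0 for 8 of 10 factors, counting Lin28a, whose replicate 1 lies at 0.000275. For Tcl1 they lie at 2.10, 1.08 and 0.63.

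Against all ID4-EGFP+ cells, neither fraction gave a call among the 10. For TSPAN8-high against all ID4-EGFP+, 0 factors were higher and 0 lower at the limma threshold, where 0.144% of all tested genes passed (0.0269% higher and 0.117% lower). The block left the factors at 0 in both directions, against 3.09% of tested genes (1.23% higher and 1.86% lower). Without the block, 2 factors had an unadjusted p under 0.05, as did 9.74% of tested genes. The 2 were Tcl1, with a log2 difference of 0.65 (SE 0.29, adjusted p = 0.489, 0.135 with the block), and Sall1, with 0.47 (SE 0.16, adjusted p = 0.337, 0.102 with the block), and for both the groups did not overlap. The other 8 lay between -0.03 for Utf1 and 0.36 for Dppa4. For TSPAN8-low against all ID4-EGFP+, 0 factors were higher and 0 lower, as were 0% of all tested genes, and the block again left them at 0, against 0.0449% of tested genes (0.00898% higher and 0.0359% lower). No factor had an unadjusted p under 0.05, against 8.17% of tested genes. The largest differences there were -0.62 for Tcl1 (adjusted p = 0.600) and -0.48 for Pou5f1 (adjusted p = 0.657), and Klf4 stood at 0.30 (adjusted p = 0.691). The mean of all ID4-EGFP+ cells lay between the means of the fractions for 7 of 10 factors, as for 48.3% of tested genes, and outside them for Utf1, Taf4b and Klf4. These comparisons share the all ID4-EGFP+ libraries or a fraction and are not independent of each other.

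**Figure D3:**
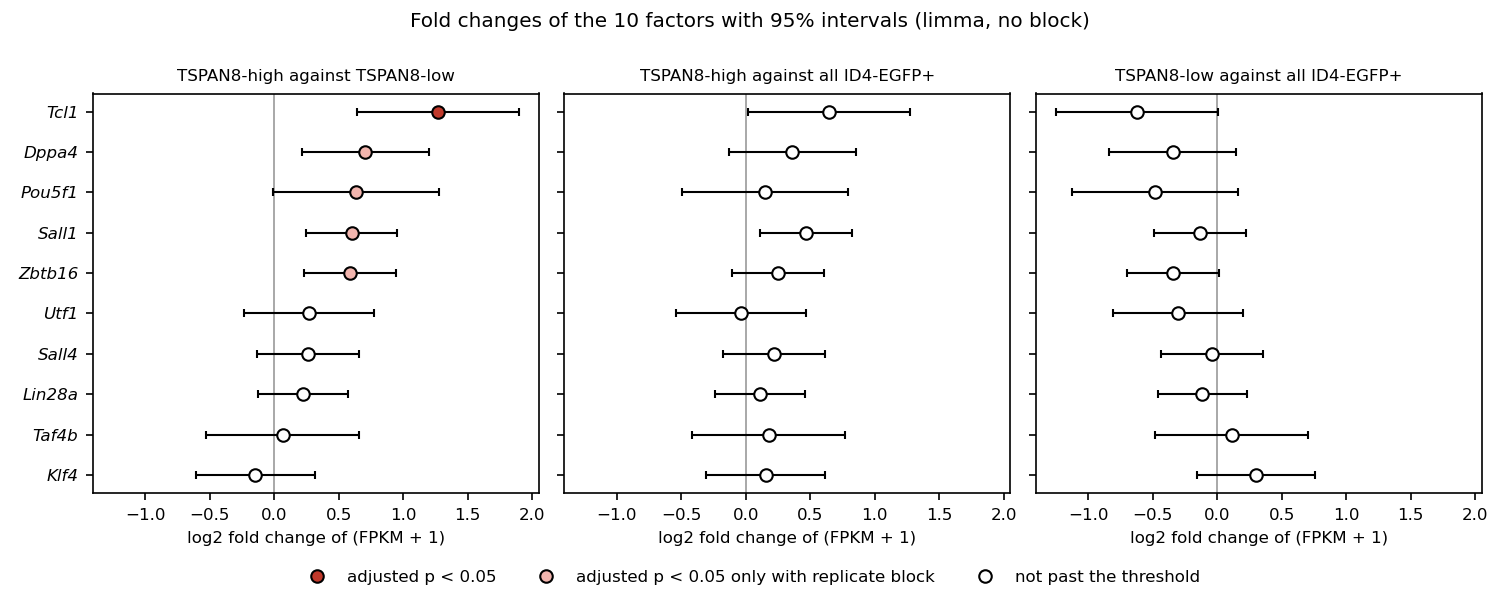
Log2 fold change of (FPKM + 1) with its 95% interval (horizontal axis) for the 10 factors (rows) in TSPAN8-high against TSPAN8-low, TSPAN8-high against all ID4-EGFP+ and TSPAN8-low against all ID4-EGFP+ cells. Tcl1 has the largest value in the first panel at 1.27, and the Klf4 interval of -0.61 to 0.31 includes 0.

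Because Tcl1 was so abundant, it made up much of the group's summed level. Its share of the 10 factors' FPKM was 59.6%, 53.4% and 57.1% in TSPAN8-high, 33.5%, 41.2% and 52.9% in TSPAN8-low and 52.7%, 46.2% and 51.0% in all ID4-EGFP+ replicates 1, 2 and 3. The share in each TSPAN8-high library was above that in each TSPAN8-low library. Across the 9 libraries, the tested genes most like Tcl1 in centred log2(FPKM + 1) were Parm1, Fbxo6 and Prrx2, at root mean square differences of 0.154, 0.161 and 0.167. Parm1 averaged 2.94 FPKM in TSPAN8-high, 1.01 FPKM in TSPAN8-low and 1.72 FPKM in all ID4-EGFP+ cells. Fbxo6 averaged 53.9 FPKM in TSPAN8-high, 26.8 FPKM in TSPAN8-low and 37.1 FPKM in all ID4-EGFP+ cells. Prrx2 averaged 28.5 FPKM in TSPAN8-high, 13.9 FPKM in TSPAN8-low and 19.9 FPKM in all ID4-EGFP+ cells.

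Of the 26 genes of the wider pluripotency network, 13 were tested, 2 rose and 2 fell in TSPAN8-high relative to TSPAN8-low cells, and the median log2 fold change was 0.01 (0.05 over all tested genes). Over all tested genes 3.41% rose and 2.15% fell. Nanog, the homeobox partner of OCT4 and SOX2 in embryonic stem cells, fell. It stood at 5.54, 8.88 and 11.1 FPKM in TSPAN8-high, against 13.8, 20.2 and 18.5 FPKM in TSPAN8-low cells, and at 17.2, 16.5 and 24.9 FPKM in all ID4-EGFP+ cells. The TSPAN8-high libraries were below all other libraries. The fold change against TSPAN8-low was -0.99 (SE 0.24, adjusted p = 0.0340, 0.0015 with the block), and against all ID4-EGFP+ it was -1.13 (adjusted p = 0.0736, 0.00215 with the block). Dppa3, known for protecting DNA methylation in the early mouse embryo, also fell, at 0.604, 0.511 and 0.144 FPKM in TSPAN8-high, against 2.54, 2.94 and 0.931 FPKM in TSPAN8-low cells (-1.09, SE 0.28, adjusted p = 0.0419). Pseudogenes of Nanog and Dppa3 are annotated in the mouse (GENCODE M21), and reads shared with them make both levels uncertain. Besides Dppa2, Stat3 rose, the transcription factor downstream of leukemia inhibitory factor, at 6.29 ± 0.948 FPKM in TSPAN8-high and 3.79 ± 0.308 FPKM in TSPAN8-low cells (log2 fold change 0.60, adjusted p = 0.0411). These calls did not hold without a minimum FPKM (adjusted p = 0.166 for Nanog, 0.209 for Dppa3 and 0.0839 for Stat3). Leaving out replicate 1 or 2 of TSPAN8-high (0.0703 and 0.0865), or replicate 2 or 3 of TSPAN8-low (0.107 and 0.0832), ended the Nanog call. The Dppa3 call ended on leaving out any library of TSPAN8-high, replicate 1 or 2 of TSPAN8-low, or replicate 3 of all ID4-EGFP+ (0.0538 to 0.147). The Stat3 call ended on leaving out replicate 2 or 3 of TSPAN8-high, any library of TSPAN8-low, or replicate 1 or 3 of all ID4-EGFP+ (0.0509 to 0.152), under the 3 other scalings (0.062 to 0.0804) and in the fit of the 2 groups alone (0.0634). Without replicate number 1, 2 or 3 of every group, and without the block, Nanog, Dppa3 and Stat3 were not called (limma adjusted p = 0.0536 to 0.290). The other 13 network genes had means of 0.0106 to 0.856 FPKM over the 9 libraries and no value above 1.28 FPKM. Sox2 and Esrrb, named after their values were seen, were among them, with Sox2 at a mean of 0.111 FPKM in TSPAN8-high and 0.0142 FPKM in TSPAN8-low cells and Esrrb at 0.0984 and 0.107 FPKM.

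Pou5f1 and Nanog differed in the sign of their fold change. That of Pou5f1 was not called without the block (limma adjusted p = 0.236), and the Nanog level is uncertain because of its pseudogenes. Pseudogenes were sought only by names that begin with the gene's symbol, so copies of Pou5f1 under other names would be missed. Shared reads were not measured for Pou5f1 or Nanog. The Pou5f1 to Nanog ratio within a library was 1.40, 0.949 and 0.983 in TSPAN8-high, 0.228, 0.371 and 0.353 in TSPAN8-low and 0.367, 0.370 and 0.515 in all ID4-EGFP+ cells. Every TSPAN8-high library exceeded every other library. The mean ratio was 1.11 ± 0.253 in TSPAN8-high and 0.317 ± 0.0777 in TSPAN8-low cells (SD, n = 3 each), 3.50 times as high. This pair was also chosen after the values were seen, so no test is given.

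**Figure D4:**
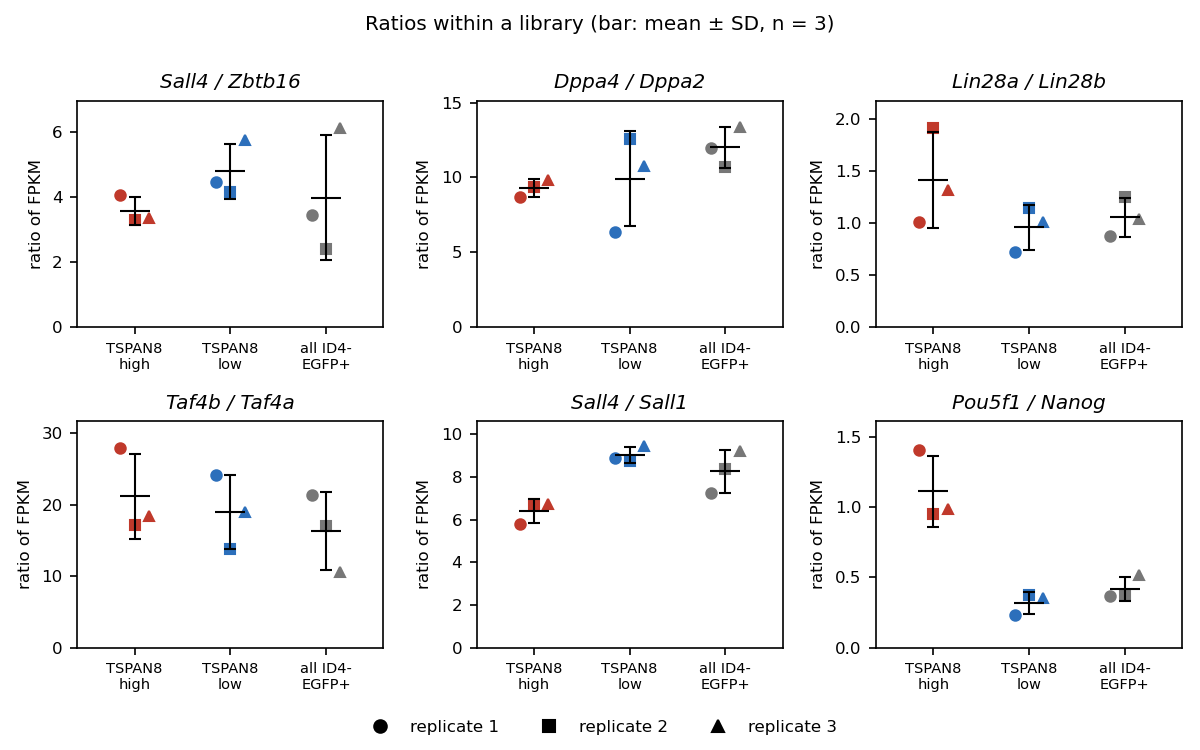
Ratio of the FPKM of a factor to that of a related gene within each library (vertical axis, linear from 0), with 1 symbol per replicate number and bars for mean ± SD (n = 3), in TSPAN8-high, TSPAN8-low and all ID4-EGFP+ cells. The Pou5f1 to Nanog ratio averaged 1.11 in TSPAN8-high and 0.317 in TSPAN8-low cells, while the Dppa4 to Dppa2 ratios of 9.28 and 9.90 overlap.

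The windows around the transcription starts of Tcl1, Pou5f1 and Nanog are shown. Tcl1 was the called factor, and the fold changes of Pou5f1 and Nanog differed in sign, that of Pou5f1 without a call outside the block. Of the 10 factors, 6 had a window in the RefSeq table (GRCm38.p6, not the build of the deposited values), which runs from 250 bases before to 50 bases from the start. Capitals mark matches on either strand to the motifs searched, which were the octamer core of POU factors (ATGCAAA), the E-boxes CAGCTG and CACCTG, the KLF box CCACCC and the GC box GGGCGG, with overlapping matches each counted. RefSeq lists 2 windows for Pou5f1 and 2 for Nanog, and the first listed of each is printed. The sequences, 5′ to 3′ on the strand of the gene, lie at chr12:105222688-105222987 on the minus strand for Tcl1, chr17:35505782-35506081 on the plus strand for Pou5f1 and chr6:122707239-122707538 on the plus strand for Nanog.
Tcl1: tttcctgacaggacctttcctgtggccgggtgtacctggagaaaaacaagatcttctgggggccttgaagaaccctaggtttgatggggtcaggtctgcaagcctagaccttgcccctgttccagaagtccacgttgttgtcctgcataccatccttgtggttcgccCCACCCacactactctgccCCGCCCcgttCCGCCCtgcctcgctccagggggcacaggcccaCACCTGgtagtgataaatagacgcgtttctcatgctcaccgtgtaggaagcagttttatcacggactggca
Pou5f1: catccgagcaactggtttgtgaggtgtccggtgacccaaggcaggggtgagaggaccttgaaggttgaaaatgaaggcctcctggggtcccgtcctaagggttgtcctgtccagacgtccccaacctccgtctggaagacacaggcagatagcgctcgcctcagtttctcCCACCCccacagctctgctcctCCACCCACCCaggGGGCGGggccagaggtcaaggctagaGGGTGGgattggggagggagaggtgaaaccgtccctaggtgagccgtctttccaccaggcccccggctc
Nanog: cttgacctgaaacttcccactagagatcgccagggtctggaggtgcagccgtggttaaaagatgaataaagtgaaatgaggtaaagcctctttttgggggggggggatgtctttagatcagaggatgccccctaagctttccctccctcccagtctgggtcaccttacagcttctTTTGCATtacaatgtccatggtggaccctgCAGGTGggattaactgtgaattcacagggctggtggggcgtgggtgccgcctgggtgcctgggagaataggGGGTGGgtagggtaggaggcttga

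The Tcl1 window held 1 match to CACCTG, from base 230, 1 to the KLF box, 2 to the GC box and 11 CpG. The Pou5f1 window printed held 4 matches to the KLF box, 1 to the GC box and 11 CpG, whereas its other window, at chr17:35508557-35508856, held 0 to either box, 1 to CAGCTG and 6 CpG. The Nanog window printed, which overlaps the other one, held 1 match to the octamer core, from base 176, 1 to CACCTG, 1 to the KLF box and 4 CpG. Of all 32851 windows, 4.63% held the octamer core, 16.3% held CAGCTG, 20.2% held CACCTG, 31.5% held the KLF box and 35.7% held the GC box, and these matches are a description of the letters only. The octamer core was found in 0 windows of the 6 factors.

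Over the 7 lists of relatives, partners and pathway genes of the factors, 79 of 105 genes were tested, 5 rose and 2 fell in TSPAN8-high relative to TSPAN8-low cells (9 and 5 with the block), with a median log2 fold change of 0.03. The shares over all tested genes were 3.41% higher and 2.15% lower, and 11.8% and 7.34% with the block. Among relatives of the factors, 1 of 12 tested genes rose. It was Klf6, a Krüppel-like factor of the KLF4 family, at 5.33 ± 0.0665 FPKM in TSPAN8-high, 2.25 ± 0.350 FPKM in TSPAN8-low and 3.28 ± 0.590 FPKM in all ID4-EGFP+ cells (SD, n = 3 each; log2 fold change 0.97, SE 0.15, limma adjusted p = 0.00578). The Klf6 call was lost without replicate number 2 or 3 of every group (0.0913 and 0.0657). Around LIN28 and let-7, 1 of 11 tested genes rose (3 with the block) and the median was 0.23. Zcchc6 (TUT7), a uridylyltransferase that acts on let-7 precursors, stood at 1.46 ± 0.160 FPKM in TSPAN8-high and 0.580 ± 0.112 FPKM in TSPAN8-low cells (0.64, adjusted p = 0.0178, ended at 0.0526 to 0.0843 on leaving out replicate 2 or 3 of TSPAN8-high or replicate 2 of TSPAN8-low). The Zcchc6 call also ended without replicate number 2 or 3 of every group (limma adjusted p = 0.240 and 0.151, 0.080 and 0.071 with the block). In the AKT pathway, the setting in which TCL1 acts, 1 of 12 genes rose. Pik3ca, the catalytic subunit of PI3-kinase, stood at 5.15 ± 0.901 FPKM in TSPAN8-high and 2.99 ± 0.387 FPKM in TSPAN8-low cells (0.62, adjusted p = 0.0394). Its call ended on leaving out any library of TSPAN8-high, replicate 1 or 2 of TSPAN8-low, or replicate 1 or 3 of all ID4-EGFP+ (0.0529 to 0.117), under the 3 other scalings (0.0594 to 0.0733), in the fit of the 2 groups alone (0.0668) and with no minimum FPKM (0.0911). The same held without replicate number 1, 2 or 3 of every group (limma adjusted p = 0.163, 0.191 and 0.166).

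Of 13 TFIID subunits and 12 tested NuRD subunits, 0 rose and 0 fell without the block. With it, 2 TFIID subunits fell and 2 NuRD subunits rose, where 7.34% of all tested genes fell and 11.8% rose. They were Taf10 and Taf12 (log2 fold changes -0.51 and -0.42, limma adjusted p = 0.124 and 0.142, 0.0143 and 0.0198 with the block) and Mta2 and Chd4 (0.57 and 0.42, adjusted p = 0.104 and 0.115, 0.00798 and 0.0276 with the block). None of the 6 tested partners and targets of ZBTB16 passed in either fit. Bmi1, a Polycomb gene of this list, stood at a log2 fold change of -0.26 (limma adjusted p = 0.654). Against all ID4-EGFP+ cells, 0 genes of the 7 lists passed in either direction without the block, for TSPAN8-high and for TSPAN8-low cells. With the block, Dppa2 (adjusted p = 0.0192) and Klf6 (0.0391) were higher and Nanog (0.00215) was lower in TSPAN8-high cells, and 0 passed for TSPAN8-low cells.

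**Figure D5:**
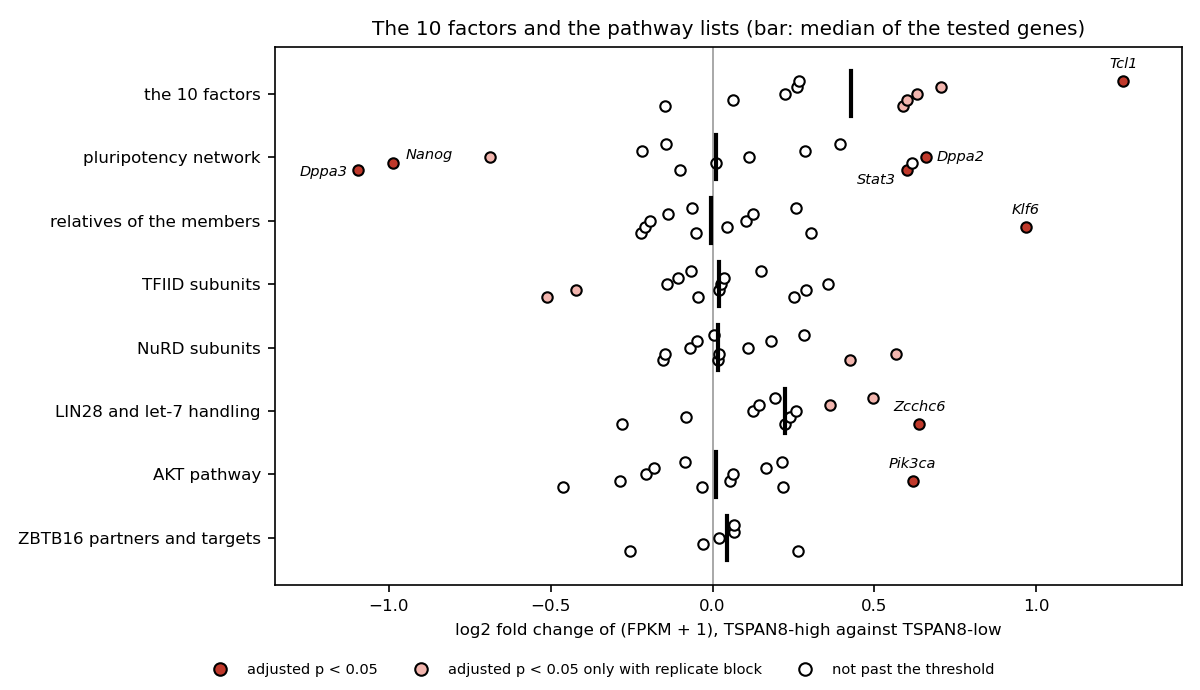
Log2 fold change of (FPKM + 1), TSPAN8-high against TSPAN8-low (horizontal axis), for the 10 factors and for the tested genes of the 7 pathway lists (rows), with 1 point per gene and a bar for the median. The medians are 0.43 for the 10 factors and 0.01 for the pluripotency network.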

How the data were processed

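RNA was sequenced from sorted cells in 3 groups of 3 libraries. The labels' protocols name SMART-Seq v4 for cDNA, a kit that primes on poly(A) tails and does not mark strand, and Nextera XT for libraries. Overlapping antisense genes were therefore not told apart. The authors deposited FPKM values from Cufflinks. Per the submitters' processing notes reads were handled with TopHat2 2.0.12, Bowtie2 2.2.3.0, FastQC and Cufflinks, and the build was mm9, with no annotation named. A deposited table of normalized values, treated as signal, was used only as an alternative. Columns were assigned to libraries from the population and number in the column names.

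Symbols on more than 1 entry (262 symbols, 768 entries) were left out, and 27 kept entries carried a date where the symbol should be. The 11142 genes that reached 1 FPKM in 3 or more of the 9 libraries were fitted together with limma 3.58.1 (R 4.3.3) on log2(FPKM + 1), as 1 two-sided moderated fit with an intensity trend and 3 groups. The threshold was an adjusted p under 0.05 (Benjamini-Hochberg over all tested genes). The scale understates fold changes at low FPKM. Errors on levels are SDs of FPKM. An exact permutation test of 3 against 3 cannot go below p = 0.1. The fit was tested on simulated data with 200 changed genes. It recovered 42% of log2 changes of size 0.7 and 95% of those of size 1.5, and 2.84% of its calls were false. Changes of the smaller size were thus often missed in the simulation. Its noise was drawn independently for each gene and library, without the shared deviations described below. These rates may therefore not hold for the real libraries.

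Deviations from the group means were shared in all 9 pairs of same-numbered libraries from different groups (r of 0.265 to 0.481 across genes). In the 18 pairs of libraries from different groups with unlike numbers r was -0.456 to 0.277. These ranges overlap, and with deviations taken from means of 3 libraries, higher r in same-numbered pairs forces lower r in the others. The number was taken to pair the libraries, as a pattern in the data that the labels do not state. The pairing was thus read from the same data that the block was then used to test. It was entered as a block in a further fit.

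The 10 factors and the gene lists were chosen with earlier results of these data known. Named pathway genes are those past the threshold in any comparison, otherwise the 2 with the smallest p in a list, of which 1 gene is not reported here. Genes most like a factor were sought for factors past the threshold. Alternatives were a pseudocount of 0.1, no minimum FPKM, 3 other scalings, the block, only the 2 groups compared and leaving out libraries. Python 3.11.15, pandas 2.3.3 and matplotlib 3.10.9 made tables and plots.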

Additional observations from a re-analysis of the deposited data

How the results depend on the processing

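The numbers of factors and pathway genes that passed, TSPAN8-high against TSPAN8-low, depended on the fit. Factors higher were 1 in the fit reported, 0 without a minimum FPKM, 5 with the replicate block and 4 when the block was combined with the authors' normalized table, a common median or quantile normalization (Pou5f1 was lost). Leaving out libraries gave 0 to 3 factors higher; the 3, without all ID4-EGFP+ replicate 2, were Tcl1, Zbtb16 and Sall1. With the replicate block and without replicate number 1, 2 or 3 of every group the count was 3, 5 and 2. Pathway genes higher were 5 in the fit reported, 2 without a minimum FPKM, 3 under each of the 3 other scalings and in the fit of the 2 groups alone, 9 with the block and 8, 7 and 8 with the block on the normalized table, a common median and quantile normalization. Pathway genes lower were 2 in the fit reported, 0 without a minimum FPKM and 5 with the block, also under each scaling. Leaving out libraries gave 0 to 5 higher and 0 to 2 lower, and with the block 6, 6 and 2 higher and 4 lower each time. Combinations of the block with scalings or left-out numbers were chosen after seeing the data. Beyond the values given in the report, the cause was not tested. No factor was lower in that comparison, and none passed against all ID4-EGFP+ cells, under any alternative run.

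Single log2 fold changes changed sign for these genes. TSPAN8-low against all ID4-EGFP+, Sall4 was -0.039 and turned to 0.042 on the normalized table, 0.057 at a common median and 0.029 after quantile normalization, with or without the block. Taf4b, TSPAN8-high against TSPAN8-low, turned to -0.029 at a common median and -0.011 after quantile normalization, with or without the block. Leaving out 1 library gave these ranges across 0. TSPAN8-high against TSPAN8-low, they were -0.35 to 0.066 for Klf4, -0.16 to 0.34 for Taf4b and -0.47 to 0.048 for Bmi1. TSPAN8-high against all ID4-EGFP+, they were -0.014 to 0.46 for Pou5f1, -0.23 to 0.12 for Utf1 and -0.042 to 0.32 for Taf4b. TSPAN8-low against all ID4-EGFP+, the range was -0.19 to 0.17 for Sall4. In that comparison Taf4b ran from -0.16 to 0.43 over the 12 fits that left out a library or a replicate number of every group. Leaving out 1 replicate number of every group, with or without the block, turned Taf4b to -0.085 (without number 2, TSPAN8-high against TSPAN8-low) and to -0.045 and -0.048 (without number 1 and 3, TSPAN8-low against all ID4-EGFP+). It turned Utf1 to 0.16 (without number 1, TSPAN8-high against all ID4-EGFP+), and Lin28a to 0.011 and Sall4 to 0.16 (without number 2 and 3, TSPAN8-low against all ID4-EGFP+). Tcl1, TSPAN8-high against TSPAN8-low, kept its sign at 0.85 to 1.63 (adjusted p 0.0045 to 0.162 by limma, past the threshold in 5 of 12 left-out fits). In the same fits Nanog passed in 5 of 12 (adjusted p 0.0309 to 0.247), Dppa2 in 5 (0.0288 to 0.255), Dppa3 in 3 (0.0121 to 0.215), Stat3 in 2 (0.0368 to 0.29), Klf6 in 10 (0.0066 to 0.0913), Zcchc6 in 7 (0.0225 to 0.24) and Pik3ca in 2 (0.0462 to 0.191), each with its sign kept. Depth is unknown, so no counting error can be given for low FPKM.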
